A study of Mus musculus with 18 samples.

Results

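The comparison described here is that of *Elac2* knockout mice (KO, genotype ELAC2-/- in the labels) with wild type mice (WT, ELAC2+/+) at 10 weeks of age. Its members are the 15089 of 55469 genes whose mean normalized count over the 6 libraries was at least 10, and its libraries are 6 of the 18 of the series. Total RNA of the ventral and lateral prostate lobes of 3 male mice per genotype was sequenced on the NovaSeq platform with the TruSeq protocol. WT libraries are named 10AF, 11AF and 12AF and KO libraries 13AF, 14AF and 15AF, and values of single libraries are given in that order.

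Both groups were age- and littermate-matched, and the labels give the strain as C56NL/6N. The KO mice carried a Cre recombinase under the probasin promoter (Pb-Cre), which removes exon 8 of *Elac2* in cells that use this promoter, the prostate epithelium. Stroma, vessels, nerves and immune cells keep an intact gene, so a whole-lobe library holds RNA of cells with and without the deletion. The dissection protocol removed seminal vesicles, urethra, bladder and fat before the lobes were separated.

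ELAC2 is the long form of RNase Z, the endonuclease that cuts the trailer from precursor transfer RNAs so that the CCA end can be added. It works in the nucleus and in mitochondria, where most messenger and ribosomal RNAs are released from long transcripts at the transfer RNAs that lie between them. The prostate epithelium is a secretory tissue: luminal cells make large amounts of a few proteins that pass through the endoplasmic reticulum (ER), and basal cells lie beneath them. Cells with impaired mitochondrial gene expression or with unfolded protein in the ER are known to induce chaperones and, through ATF4, genes of amino acid transport and synthesis.

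Exon 8 of *Elac2* (ENSMUSG00000020549.14) is the sequence that the design removes, and it is shown for what its loss does to the reading frame. In transcript ENSMUST00000071891.11 on the forward strand of GRCm38 it spans chr11:64985563-64985621. It holds 59 bases, printed in capitals between the last 24 bases of exon 7 and the first 24 of exon 9:
Elac2 exon 8: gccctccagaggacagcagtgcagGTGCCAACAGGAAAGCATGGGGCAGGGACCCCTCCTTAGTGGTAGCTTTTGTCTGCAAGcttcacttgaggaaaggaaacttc

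The exon follows 222 whole codons. Its 59 bases leave 2 over after whole codons, so its removal shifts the frame. When exon 7 is joined to exon 9, the first stop codon, in capitals, is codon 234 and lies in exon 9, after 11 codons in the new frame:
Elac2 exon 7 joined to exon 9: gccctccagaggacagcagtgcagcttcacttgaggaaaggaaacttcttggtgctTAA

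Gene counts do not separate transcripts with this exon from transcripts without it. The normalized count of *Elac2* was 124, 142 and 166 in WT and 119, 111 and 115 in KO. Each KO library lay below each WT library, though 13AF and 10AF were close. The log2 difference was -0.31 with a standard error (SE) of 0.163 (adjusted p = 0.325 from limma, adjusted p = 0.495 from DESeq2), and it ran from -0.41 to -0.20 when libraries were left out in turn and was -0.10 with the libraries scaled to the same total. The count alone does not check the genotype labels.

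Marker genes separated the libraries first. Genes of skeletal muscle, 50 entries of which 49 were tested, took 4.27%, 7.15% and 13.8% of normalized counts in WT and 0.0797%, 2.24% and 0.0733% in KO. Genes of the seminal vesicle, 11 of 11 tested, took 4.64%, 1.77% and 0.000847% in WT and 9.49%, 6.56% and 10.3% in KO. Muscle markers were lower and seminal vesicle markers higher in every KO library than in any WT library, with mean shares of 8.42% ± 4.91 (SD, n = 3) against 0.796% ± 1.25 for muscle and 2.14% ± 2.34 against 8.79% ± 1.97 for seminal vesicle. Each difference had an exact permutation p of 0.1 (two-sided), the smallest that 3 against 3 libraries can give.

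The labelled lobes were checked in the same way. The secretory genes of the ventral and lateral lobes took 3.61%, 12.4% and 13.3% in WT and 3.77%, 2.47% and 0.371% in KO. *Sbp*, the spermine-binding protein of the ventral prostate, alone took 2.91%, 10.2% and 10.7% in WT and 2.99%, 1.79% and 0.00428% in KO, so that its ventral defining marker was nearly absent from 15AF. *Tgm4* and *9530053A07Rik*, secreted mainly by dorsal and anterior lobes, together took 5.27%, 0.304% and 0.000650% in WT and 3.38%, 4.73% and 5.89% in KO. Library 12AF thus held almost no dorsal, anterior or seminal vesicle RNA, 10AF resembled the KO libraries in these markers, and 15AF held little *Sbp*. Of the same list, *Spink1* and *Azgp1* were also lowest in 15AF, at 53.7 and 828. *Msmb* and *Pbsn* were not low there. *Msmb* was counted at 3279, 11754 and 5249 in WT and 4986, 5581 and 5233 in KO, and *Pbsn* at 20447 in 15AF. Fits that take the mean log2 level of a tissue list as a covariate (its score) are given beside the main results and many that they move by over 1.5 times. A value given without such a fit is not thereby stable. Genotype and tissue content moved together, and where a covariate takes up a difference they cannot be told apart. A difference that stays in such a fit is not thereby one of genotype. The muscle score itself separated the groups, at 10.6 to 12.7 in WT and 3.03 to 9.61 in KO. No score of dorsal and anterior lobe secretion was fitted.

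**Figure D1:**
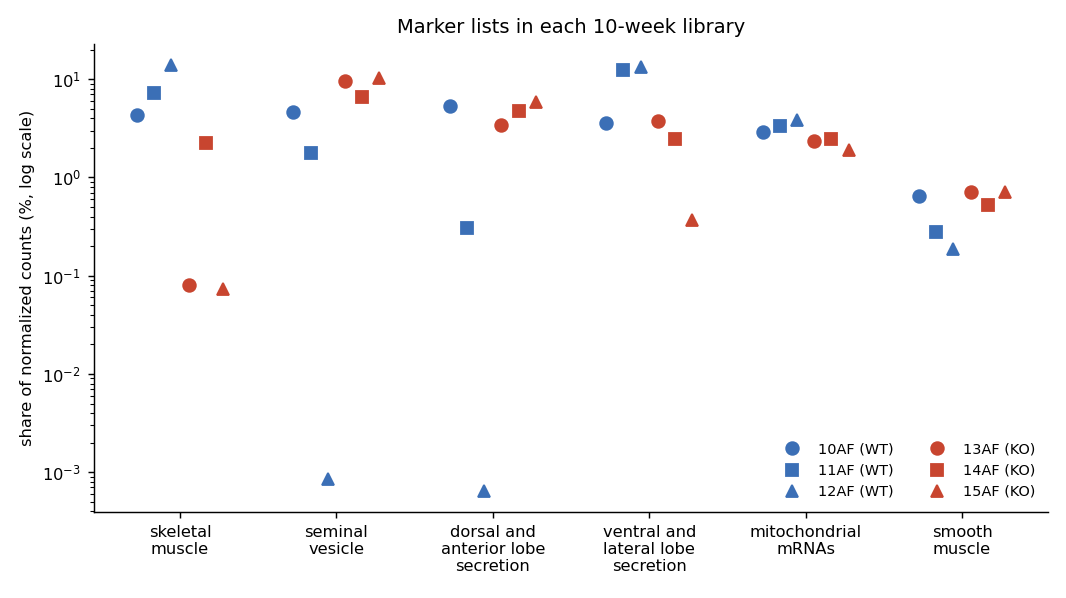
Share of normalized counts (%, log axis) taken by 6 marker lists in each of the 6 libraries, with WT libraries in blue and KO libraries in red and 1 point per library. Skeletal muscle is at or above 4.27% in WT and at or below 2.24% in KO, seminal vesicle at or above 6.56% in KO and at or below 4.64% in WT, and the secretory lists of the lobes overlap.

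The libraries held 6569642 to 10231862 recovered reads, and a count of 0 allows up to 3 reads, a share of at most 4.57e-05%. On the log2 scale, a first principal component took 67.65% of the variance and ordered the libraries 12AF, 11AF, 10AF, 14AF, 13AF and 15AF. The highest correlation of a WT with a KO library across genes was that of 10AF with 14AF (r = 0.960), above that of 10AF with either WT library (0.919 and 0.866). Genes are not independent replicates, so these values describe the libraries only. The 7SL RNA genes, a non-coding RNA of the signal recognition particle, took 10.3% to 17.4% of normalized counts, with the highest share in 14AF.

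Of the tested genes 49.4% were higher and 50.6% lower in KO on the log2 scale. No gene passed an adjusted p of 0.05 in limma on log2(normalized count + 1), where the smallest adjusted p was 0.183. At an unadjusted p under 0.05, 2930 genes (19.4% of those tested) differed, 1202 higher (7.97%) and 1728 lower (11.5%) in KO. DESeq2 on the recovered reads called 715 genes (4.74%), 182 higher (1.21%) and 533 lower (3.53%), and edgeR called 0, with 2806 (18.6%) at an unadjusted p under 0.05. Groups did not overlap for 3919 genes (26%), of which 1762 (11.7%) were higher and 2157 (14.3%) lower in KO. Without 10AF limma called 2840 genes, 1444 higher (9.57%) and 1396 lower (9.25%), and without 14AF it called 185, 184 of them lower. *Gm20236*, named after its values were seen, was the 1 higher gene of the latter, at 0 in all WT libraries and 14AF and at 43.8 and 51.4 in 13AF and 15AF. Scaling the libraries to the same total moved the median of all genes by 0.20 on the log2 scale and turned the split of unadjusted calls to 1905 higher and 1058 lower.

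Genes that followed the muscle markers made up much of the lower side. Over the 10-week WT and A537T libraries of the series, none of which is a KO library, 1604 of the tested genes (10.6%) followed the mean level of the muscle list with a Pearson r above 0.8. In KO against WT their median log2 difference was -0.58, and 863 of them were lower and 3 higher at an unadjusted p under 0.05. The 453 genes (3%) that followed the seminal vesicle list had a median of 0.33, with 83 higher and 2 lower. The other 13032 genes (86.4%) had a median of 0.04, with 1116 higher and 863 lower. This class includes genes that ran opposite to the muscle list, so it is not free of a relation to muscle content. Among them are *Slc7a11* (r = -0.959), *Rec8* (-0.904) and *Creld2* (-0.846). The WT libraries enter both sets of values, so the classes are not independent of this comparison. With the muscle score as a covariate 295 genes (1.96%) had an unadjusted p under 0.05, and with both scores 241 (1.6%), and none passed the adjusted threshold in either fit.

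Among muscle genes themselves, all 49 were lower in KO, with a median log2 difference of -6.36, against -0.01 over all genes tested. The count of *Hspb7*, a small heat shock protein of striated muscle, was 421, 698 and 1165 in WT and 74.8, 102 and 45.7 in KO. Its log2 difference of -3.29 (SE 0.426) had an adjusted p of 0.183 from limma and of 1.87e-11 from DESeq2, and was -2.18 with the muscle score as covariate. *Ttn*, the giant sarcomere protein, differed by -5.42 and *Acta1*, skeletal actin, by -3.76, and these became -0.19 and -0.83 with the covariate. *Myl3* and *Xirp1*, a myosin light chain and a sarcomere-associated protein, were on no list and among the largest decreases of the genes outside the tracking classes, with log2 differences of -5.46 and -5.34 that became 0.25 and 0.08.

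The seminal vesicle genes were all higher in KO, with a median log2 difference of 4.82, and 8 of 11 did not overlap (11.7% of all genes on that side). *Svs2*, the main protein of the seminal clot, was counted at 238896, 78490 and 32.6 in WT and 409559, 316188 and 463313 in KO. Its log2 difference was 5.51 (SE 3.08, adjusted p = 0.348 from limma), and it turned to -1.10 with both scores as covariates. *Svs5* behaved likewise at 5.36 and -0.997, and *Spinkl* differed by 3.44 and by 0.56 with both scores. Genes with overlapping sequence in the *Svs* family could share reads, and their single values are uncertain to that extent.

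The secretory genes of the labelled lobes spread widely. *Sbp* was counted at 232848, 868715 and 1107830 in WT and 222011, 145722 and 321 in KO, a log2 difference of -4.80 (SE 2.41, adjusted p = 0.312 from limma) that ran from -6.47 to -1.76 as libraries were left out. *Spink1*, a secreted trypsin inhibitor, followed it at -4.93. Both turned positive, to 0.27 and 0.42, with the muscle score as covariate. *Sbp* has a close copy in the genome, so its count may be split. *Pbsn*, the probasin gene whose promoter drives the Cre, went the other way, with counts of 13783, 10714 and 2984 in WT and 14232, 20409 and 20447 in KO and a log2 difference of 1.25 (SE 0.558, adjusted p = 0.273 from limma). It was 0.91 with the muscle score and 0.36 with both. *Azgp1*, a secreted glycoprotein, was 1.03 log2 units lower in KO (adjusted p = 0.189 from limma and 0.0245 from DESeq2) and 0.41 lower with the muscle score.

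Luminal genes had no common direction. Of 12 tested, 5 were higher and 7 lower, with a median log2 difference of -0.07 and a range from -1.11 to 2.24. At an unadjusted p under 0.05, 2 were higher (7.97% of all genes on that side) and 1 lower (11.5%). Without overlap, 2 lay above WT (11.7% of all genes) and 0 below (14.3%). *Cd24a*, the most abundant member, lay above WT at 0.38 (0.36 with the muscle score). *Krt18*, a keratin of luminal cells, was counted at 2014, 2634 and 2329 in WT and 2212, 2368 and 2307 in KO. Its log2 difference of -0.01 changed sign with the scaling. *Hoxb13*, a homeobox factor of the distal prostate, was at 845, 2120.5 and 1767 in WT and 671, 924 and 509 in KO. Only the WT library 10AF lay within the KO range, and the log2 difference of -1.11 (adjusted p = 0.201 from limma, 0.0363 from DESeq2) became -0.25 with the muscle score. The androgen receptor and its targets, 18 genes, had a median of -0.04, and *Herc3*, the member with the smallest p, differed by -0.92 (-0.36 with the muscle score).

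Basal keratin genes leaned upwards. Of 11 tested basal genes 10 were higher and 1 lower in KO, with a median log2 difference of 0.42, 5 at an unadjusted p under 0.05 (7.97% of all genes on that side) and 6 without overlap (11.7%). *Krt14*, a keratin of basal cells, was counted at 55.8, 79.1 and 34.7 in WT and 120.3, 107 and 131 in KO, so that all KO libraries exceeded all WT libraries. Its log2 difference was 1.14 (SE 0.308, adjusted p = 0.183 from limma, 0.049 from DESeq2), 0.74 with the muscle score and 0.48 with both scores. Over the 10-week WT and A537T libraries *Krt14* followed the seminal vesicle list (r = 0.968). *Trp63*, the p63 factor that defines basal cells, differed by 0.51, *Krt15* by 0.36 and *Col17a1*, a hemidesmosome collagen, by 0.97, and these were 0.26, 0.15 and 0.97 with the muscle score. In bulk RNA, more cells of a type and more RNA per cell cannot be told apart.

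The chaperones of the ER were mostly higher in KO. This list of ER stress and folding genes had 32 tested members, of which 26 had higher values in KO and 6 lower, with a median log2 difference of 0.31 that was 0.30 with the muscle score and 0.20 with both scores. In limma 12 had an unadjusted p under 0.05, all higher, against 7.97% of all genes on that side, and 14 did not overlap, against 11.7%. DESeq2 called 5 of them higher, against 1.21% of all genes. The median stayed positive under each of the 23 alternatives tried, from 0.17 to 0.52.

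*Creld2* (chr15:88819646-88826683, forward strand) encodes a chaperone-like protein secreted in ER stress and was counted at 781, 544 and 410 in WT and 1221, 1717 and 1813 in KO. The lowest KO library was 13AF and the highest WT library 10AF, and the groups were well apart. The log2 difference was 1.48 (SE 0.265, adjusted p = 0.183 from limma, 2.14e-04 from DESeq2) and 1.40 with the muscle score. *Hsp90b1*, which encodes GRP94, the ER form of HSP90, was at 7031, 5228 and 4235 in WT and 8907, 10224 and 13221 in KO. It was 0.98 log2 units higher (SE 0.245, adjusted p = 0.183 from limma, 0.0074 from DESeq2), 0.68 with the muscle score and 0.58 with both. Between 10AF and 14AF, the WT and KO libraries with the highest correlation, *Creld2* went from 781 to 1717 and *Hsp90b1* from 7031 to 10224. The pair was picked from these data and is not matched in tissue content. Muscle genes took 4.27% in 10AF and 2.24% in 14AF, and seminal vesicle genes 4.64% and 6.56%.

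*Hspa5*, which encodes BiP, the chief ER chaperone of the HSP70 type, was counted at 6899.7, 7966 and 7243 in WT and 8804, 11121 and 11815 in KO. All KO libraries exceeded all WT libraries, with a log2 difference of 0.51 (SE 0.176, adjusted p = 0.204 from limma, 0.0376 from DESeq2). The protein disulfide isomerase gene *Pdia4* was 1.01 higher, *Manf*, a secreted ER stress factor, 0.59, and *Hyou1*, an HSP110-type chaperone, 0.51. *Sdf2l1*, *Derl2* and *Calr*, which take part in ER quality control, differed by 0.44, 0.34 and 0.33, and *Herpud1*, of ER-associated degradation, by -0.22. These last 7 genes were picked with their values known.

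The ER stress response element, a promoter motif known to bind ATF6 with NF-Y, was searched on both strands, as CCAAT and CCACG with any 9 bases between them, in the 300 bases around RefSeq start sites (250 before to 50 after, GRCm38.p6). Of 32851 promoter windows 39 (0.119%) held it, as did 17 of the 10760 tested genes with a window (0.158%). Of the 26 genes of the ER list with a window, 9 held it (34.6%), *Hspa5*, *Hsp90b1* and *Creld2* among them, and 0 of 21 of the integrated stress response did. The list was written for this pathway, so its share describes the genes and is not a result of the comparison. The 3 stretches are printed because *Creld2*, *Hsp90b1* and *Hspa5* are the members described in most detail, with the motif in capitals. *Pdia4*, the gene next to *Creld2* in size of difference, is not among the 9. *Hspa5* is at chr2:34771995-34772073 (forward strand), *Hsp90b1* at chr10:86705503-86705686 (reverse strand, 2 matches) and *Creld2* at chr15:88819490-88819568 (forward strand, the match on the opposite strand):
Hspa5: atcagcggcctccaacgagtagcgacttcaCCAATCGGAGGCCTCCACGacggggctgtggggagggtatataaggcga
Hsp90b1: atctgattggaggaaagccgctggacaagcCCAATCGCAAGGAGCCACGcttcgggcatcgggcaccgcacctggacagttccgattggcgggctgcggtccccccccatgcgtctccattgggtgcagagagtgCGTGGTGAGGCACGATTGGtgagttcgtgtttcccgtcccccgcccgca
Creld2: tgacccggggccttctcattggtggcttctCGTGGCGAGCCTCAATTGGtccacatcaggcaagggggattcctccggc

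The integrated stress response, the ATF4 arm, was mixed. Of 24 genes 17 were higher and 7 lower in KO, with a median log2 difference of 0.27 that stayed between 0.17 and 0.48 under the alternatives. At an unadjusted p under 0.05, 9 were higher (against 7.97% of all genes) and 2 lower (against 11.5%), and 10 lay above (against 11.7%) and 2 below WT (against 14.3%) without overlap. *Atf4* itself, at 844, 773 and 870 in WT and 811, 864 and 840 in KO, differed by 0.02.

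*Slc7a11* (chr3:49892526-50443614, reverse strand of GRCm38) encodes the cystine transporter that supplies glutathione synthesis and was counted at 21.5, 22.5 and 12.2 in WT and 67.9, 118 and 91.5 in KO. The groups were far apart. The log2 difference was 2.25 (SE 0.333, adjusted p = 0.183 from limma, 3.1e-05 from DESeq2), 2.55 with the muscle score and 2.29 with both scores, and it ran from 1.99 to 2.46 as libraries were left out. Between 10AF and 14AF, which are not matched in tissue content, its count went from 21.5 to 118. Over the 10-week WT and A537T libraries *Slc7a11* ran opposite to the muscle list (r = -0.959). Among other members, *Trib3*, a pseudokinase induced by ATF4, differed by 1.21 (0.79 with the muscle score), with 14.7, 11.7 and 12.2 in WT and 30.1, 25.8 and 37.7 in KO. *Psat1* and *Shmt2*, of serine synthesis and mitochondrial one-carbon metabolism, differed by 1.43 and 1.09, and *Mthfd2*, also of the latter, by 1.12.

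For *Psat1*, *Shmt2* and *Mthfd2* these values were 0.55, 0.21 and 0.14 with both scores. The amino acid carriers *Slc7a5* and *Slc3a2* were at 1.40 and 0.75, and at 0.27 and 0.26 with both scores. *Sesn2*, a stress-induced regulator of growth signalling, differed by 0.64 (0.37 with the muscle score) and *Asns*, asparagine synthetase, by 0.33. On the other side, *Vldlr*, a lipoprotein receptor, differed by -1.96 (adjusted p = 0.183 from limma, 0.001 from DESeq2) and *Pycr1*, of proline synthesis, by -0.99, which became -0.70 and -0.31 with the muscle score. *Nupr1*, a small stress-induced nuclear protein, was at 694, 2288 and 3296 in WT and 767, 937 and 158 in KO. Its log2 difference of -1.84 turned to 0.16 with the muscle score.

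The C/EBP-ATF element, to which ATF4 binds with C/EBP proteins, was searched as TGATGNAAN in the same windows on both strands. It was held by 1299 of 32851 windows (3.95%), 294 of 10760 tested genes (2.73%) and 7 of 21 genes of this list (33.3%), which include *Trib3*, *Asns* and *Slc7a11* but also *Pycr1*, *Nupr1* and *Vldlr* of the lower side. The stretch of *Slc7a11* is shown because this gene had the largest difference of the list and 2 copies of the motif, 1 on each strand, in capitals. It spans chr3:50443623-50443709 on the reverse strand of GRCm38.p6:
Slc7a11: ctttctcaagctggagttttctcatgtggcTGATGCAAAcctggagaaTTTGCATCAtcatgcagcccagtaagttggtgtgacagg

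Antioxidant genes did not move as a group. Of 25 genes 6 were higher and 19 lower in KO, with a median log2 difference of -0.18 that turned positive under 2 scalings. *Gclm*, the regulatory subunit of the enzyme that starts glutathione synthesis, stood apart from them. The gene (chr3:122245557-122270732, forward strand) was counted at 388, 411 and 322 in WT and 605, 616 and 634 in KO, with a narrow KO group well above WT. Its log2 difference was 0.73 (SE 0.131, adjusted p = 0.183 from limma, 0.00169 from DESeq2) and 0.57 with both scores. The peroxiredoxin genes *Prdx6* and *Prdx1* overlapped between groups, with 0.53 and -0.18, or 0.19 and -0.31 with both scores. The antioxidant response element core TGACNNNGC was in 6 of 20 promoters of the list (30%), *Gclm* included, and in 16.9% of those of tested genes.

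Mitochondrial gene expression, where ELAC2 acts, was compared next. The 11 mitochondrial mRNAs took 2.88%, 3.35% and 3.83% of normalized counts in WT and 2.34%, 2.47% and 1.88% in KO. Every KO library lay below every WT library, at 3.35% ± 0.479 (SD, n = 3) against 2.23% ± 0.310, with an exact permutation p of 0.1, the smallest possible. Of the 11, 8 were lower without overlap (14.3% of all genes) and 3 higher, and their median log2 difference was -0.63, or -0.16 with the muscle score and -0.07 with both. Of these mRNAs, 8 followed the muscle list.

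*mt-Co1*, *mt-Co2* and *mt-Co3*, the core subunits of cytochrome oxidase, were 1.06, 0.91 and 1.18 log2 units lower in KO, and 0.41, 0.42 and 0.54 lower with the muscle score. For *mt-Co2* the counts were 23257, 30577 and 40259 in WT and 16479, 18799 and 13885 in KO, and its adjusted p was 0.184 from limma and 0.00787 from DESeq2. The 2 mitochondrial rRNAs differed in direction. *mt-Rnr2*, of the large ribosomal subunit, was counted at 269937, 247492 and 307643 in WT and 222141, 239559 and 205324 in KO, each KO library below each WT library, with a log2 difference of -0.30 and, with the muscle score, -0.10 (adjusted p = 0.752 from limma, 0.254 from DESeq2). *mt-Rnr1*, of the small subunit, overlapped between groups at 0.33, or 0.21 with the muscle score and 0.16 with both.

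Of 76 nuclear-encoded subunits of oxidative phosphorylation, 75 were lower and 1 higher, with 65 at an unadjusted p under 0.05 (11.5% of all genes on the lower side) and 40 called lower by DESeq2 (3.53% of all genes). Their median log2 difference was -0.89, -0.38 with the muscle score and -0.20 with both scores, and 55 of the 76 followed the muscle list. *Atp5a1*, of ATP synthase, was at 3244, 4363 and 6909 in WT and 2359, 2748 and 2287 in KO. *Ndufb3*, of complex I, was at 218, 267 and 372 in WT and 149.5, 126 and 138 in KO. It kept its size with the muscle score, at -1.01 without and -0.99 with it, while *Atp5a1* went from -0.91 to -0.43, *Atp5b* from -0.62 to -0.06 and *Sdha* of complex II from -0.69 to -0.43. Adjusted p for *Ndufb3* was 0.183 from limma and 0.00724 from DESeq2.

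Genes of the RNA machinery around ELAC2 had smaller differences. Of 21 genes of transfer RNA end processing, 16 were lower and 5 higher, with a median log2 difference of -0.27, or -0.07 with both scores, and 2 of the 21 were lower at an unadjusted p under 0.05, where 11.5% of all genes were. *Hsd17b10*, a subunit of the mitochondrial RNase P that cuts the other end of the transfer RNA, was counted at 235, 323 and 386 in WT and 223, 231 and 173 in KO. It differed by -0.57, *Lrpprc* by -0.31 and *Slirp*, its partner in mitochondrial mRNA stability, by -1.07. With both scores these were -0.08, -0.06 and -0.06. Of 78 mitochondrial ribosomal proteins 70 were lower, with a median of -0.35 and of -0.01 with both scores, and *Mrps17* differed by -0.69, or -0.45 with both scores. Cytosolic ribosomal proteins had a median of -0.33, or -0.12 with the muscle score and -0.04 with both. Many have processed copies that could share reads.

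**Figure D2:**
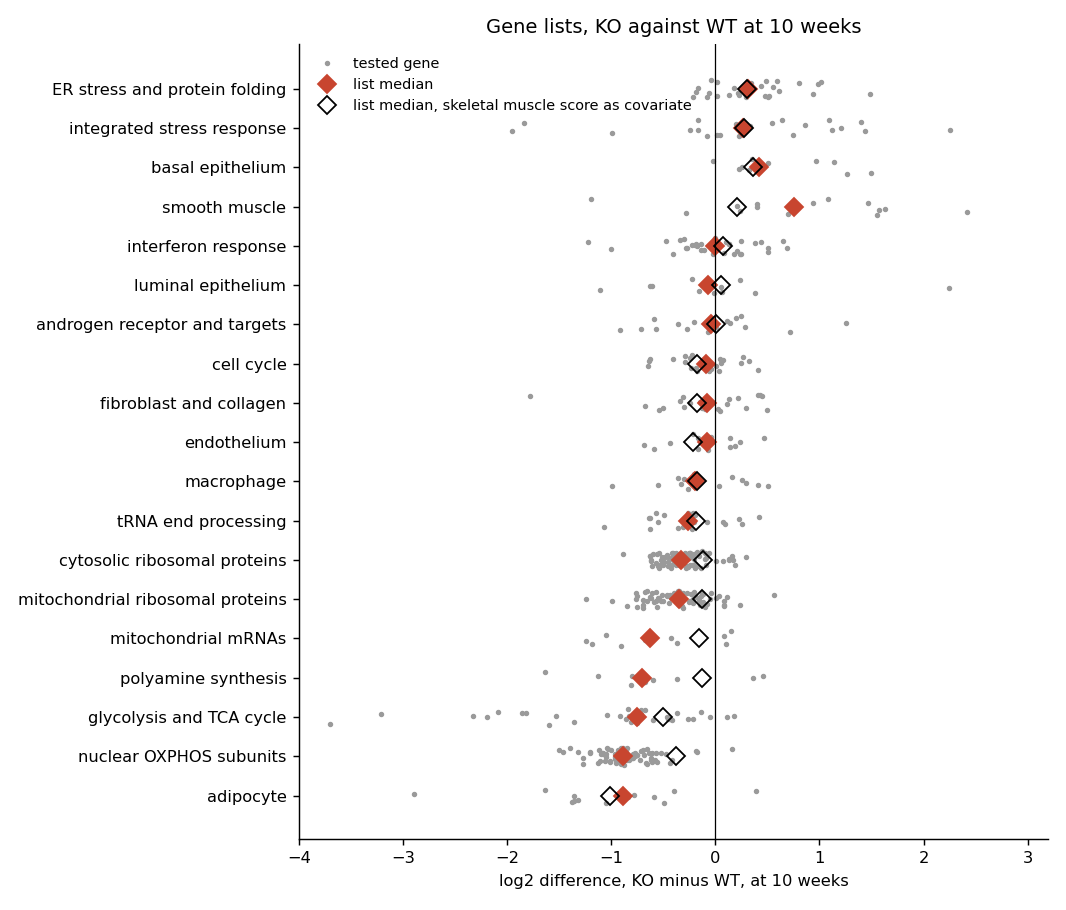
Log2 difference (KO minus WT) of every tested gene of 19 lists as grey points, with the list median as a filled diamond and the median with the skeletal muscle score as covariate as an open diamond, and 1 gene beyond the axis. The medians of the ER (0.31) and ATF4 (0.27) lists hardly move with the covariate, and that of the OXPHOS subunits moves from -0.89 to -0.38.

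Genes of energy metabolism were lower in KO. Of 33 genes of glycolysis and the TCA cycle 31 were lower and 2 higher, with a median log2 difference of -0.75 and of -0.51 with the muscle score, and 22 followed the muscle list. *Aldoa*, *Gapdh* and *Pkm*, glycolytic enzymes also abundant in muscle, differed by -3.21, -2.19 and -1.86, and by -0.84, -0.80 and -0.84 with the muscle score. *Gapdh* has many near-identical copies, which makes its count uncertain. *Eno1* (chr4:150236721-150248879, forward strand), the enolase of non-muscle cells, was counted at 1016, 1264 and 1199.6 in WT and 742, 612 and 605 in KO. All KO libraries were lower, by 0.83 on the log2 scale (SE 0.143, adjusted p = 0.183 from limma, 6.73e-04 from DESeq2) and by 0.86 with the muscle score.

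Polyamine synthesis is a known feature of the prostate, whose secretions are rich in spermine. Of 11 such genes 9 were lower and 2 higher, with a median log2 difference of -0.71 and of -0.13 with the muscle score. *Amd1*, which supplies decarboxylated S-adenosylmethionine, was at 3252, 8831 and 10592 in WT and 2445, 3199 and 1291 in KO. Within WT this is the order of the ventral marker *Sbp* and also of the skeletal muscle share. The log2 difference of *Amd1* was -1.64 (adjusted p = 0.189 from limma, 0.00889 from DESeq2), and -0.41 with the muscle score. *Odc1*, the first enzyme, differed by -0.80, *Smox*, spermine oxidase, by -1.13, and *Azin1*, which protects ODC1 from degradation, by 0.36. With the muscle score these were -0.13, -0.51 and 0.13.

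Outside these lists, the rule for named genes took those with a mean of at least 100 that followed neither tissue list at r above 0.8. Genes that ran opposite to a tissue list were not left out. Apart from a part picked on the fit with the muscle covariate, the rule took only genes without overlap. Among these it took the smallest p or the largest differences. Separate groups therefore follow from the pick of these genes. Of the higher ones, *Ccnt1*, a cyclin of the transcription elongation factor P-TEFb, was counted at 413, 352 and 367 in WT and 636, 608 and 657 in KO. The groups were tight and far apart, with a log2 difference of 0.75 (SE 0.117, adjusted p = 0.183 from limma, 3.63e-04 from DESeq2) and 0.63 with the muscle score. *Fgfbp1*, a carrier of fibroblast growth factors, differed by 1.09 (0.88 with the muscle score) and *Pigc*, of GPI anchor synthesis, by 1.04 (0.62). *Gusb*, a lysosomal enzyme, *Sh3rf1*, a scaffold of JNK signalling, and *Cplane1*, of ciliary function, differed by 0.80, 0.81 and 0.84. *Zcchc8*, of the nuclear exosome targeting complex, was at 168, 167 and 155 in WT and 271, 364 and 284 in KO, and its log2 difference went from 0.89 to 1.21 with the muscle score. *Cish*, an inhibitor of cytokine signalling, differed by 1.09, *Rec8*, a meiotic cohesin, by 1.22, and *Arl4c*, a small GTPase, by 1.67 (1.05 with both scores).

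*Prdm16* (chr4:154316125-154636873, reverse strand), a transcription factor known for brown fat, was counted at 116, 30.8 and 27.5 in WT and 381, 279.9 and 398 in KO. Within WT the highest count was in 10AF, the WT library with most seminal vesicle RNA, most dorsal and anterior lobe RNA and least skeletal muscle RNA. Counts of 11AF and 12AF were close, at seminal vesicle shares of 1.77% and 0.000847%. Over the 10-week WT and A537T libraries the r of *Prdm16* with the seminal vesicle list was 0.303. The log2 difference was 2.88 (SE 0.531, adjusted p = 0.183 from limma, 3.07e-04 from DESeq2), and 1.83 with both scores. The largest increases had the same order within WT, which is that of both the seminal vesicle and the dorsal and anterior lobe shares. *Crisp1*, a cysteine-rich protein of the male tract, was at 1781, 182 and 0 in WT and 2811, 2175 and 3098 in KO, and its log2 difference of 5.28 became 0.06 with both scores. *Nlrp10*, *Unc79*, *Foxi1* and *Gabrp* differed by 4.10, 3.35, 3.21 and 2.69, and by 1.32, 0.50, -0.44 and 0.18 with both scores.

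Of the lower ones, *Ptpn4*, a tyrosine phosphatase, was counted at 495, 475 and 566 in WT and 296, 288 and 290 in KO. The 3 KO values were close together, and the log2 difference was -0.81 (SE 0.12, adjusted p = 0.183 from limma, 3.12e-04 from DESeq2), or -0.78 with the muscle score. *Esrra* (chr19:6910977-6921813, reverse strand), the nuclear receptor ERRα that drives genes of mitochondrial energy metabolism, was at 242, 237 and 252 in WT and 138, 153 and 137 in KO. Its values did not overlap, and the log2 difference was -0.77 (SE 0.127, adjusted p = 0.183 from limma, 0.00386 from DESeq2), -0.61 with the muscle score and -0.60 with both.

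*Mcf2l*, a guanine nucleotide exchange factor, differed by -0.94 (-1.05 with the muscle score) and *Mcrip1*, a regulator of ERK-dependent repression, by -0.99 (-1.39). *Tdrd7*, *Cast*, the calpain inhibitor, and *Arl2*, a small GTPase of tubulin folding, were at -0.83, -0.72 and -0.73, and at -0.79, -0.63 and -0.65 with the muscle score. Others came closer to 0 with it. *Fhl1*, a LIM protein abundant in muscle, went from -2.41 to -1.10, *Slc2a4*, the insulin-regulated glucose transporter, from -2.39 to -1.19, and *Rgs5*, a pericyte regulator of G proteins, from -1.29 to -0.73. *Rnf150*, a ring finger protein, was at -1.50 and -1.46.

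**Figure D3:**
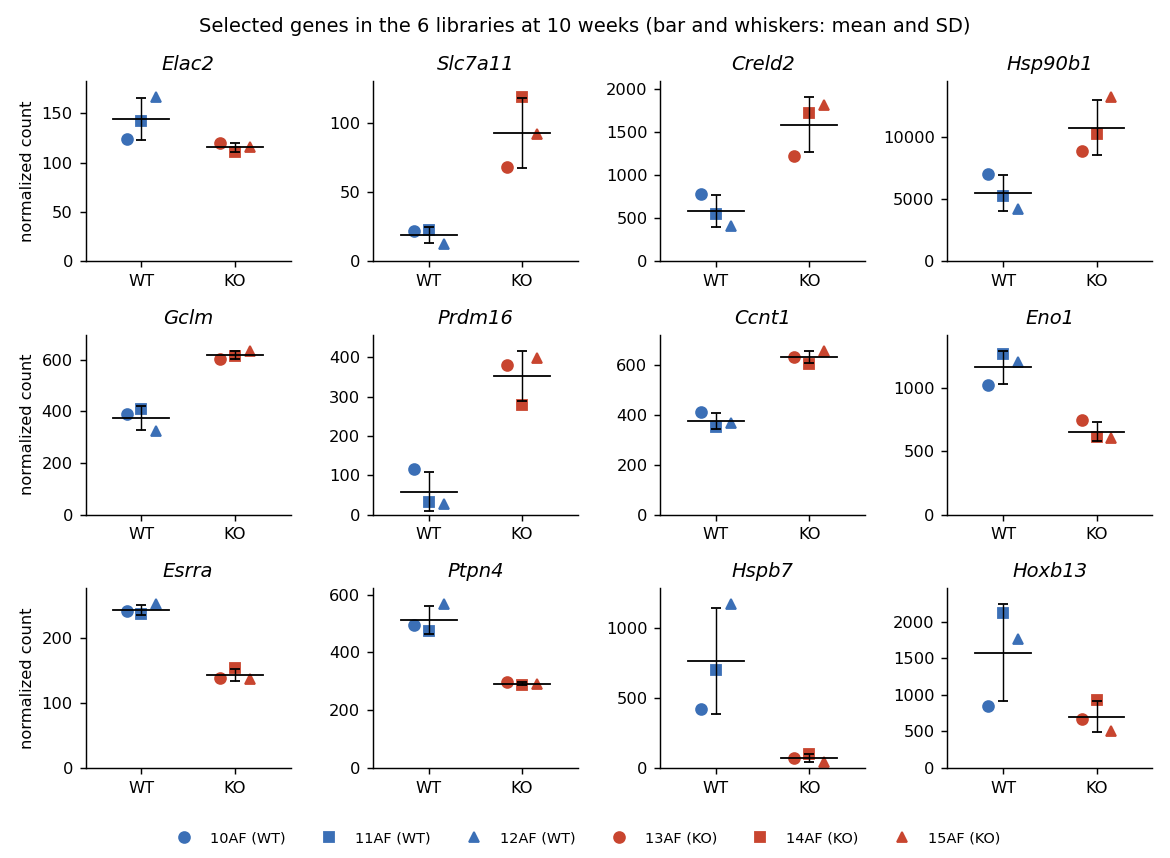
Normalized counts (linear axes from 0) of 12 genes in each of the 6 libraries, with WT in blue and KO in red, the bar as the mean and the whiskers as 1 SD (n = 3). Counts of *Ccnt1*, *Gclm*, *Ptpn4* and *Esrra*, which were picked among genes without overlap, lie in tight groups. *Prdm16* is highest within WT in 10AF (116), and *Hoxb13* overlaps between groups.

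The stroma and other cell types held smaller or less stable differences. Of 15 smooth muscle genes 13 were higher in KO, but the groups overlapped for each of the 13. The median log2 difference of the list was 0.76, or 0.20 with the muscle score and -0.05 with both. Library 10AF had as much *Myh11* (18538) as the KO libraries (18454, 14603 and 19027) while 11AF and 12AF had 7183 and 4065. *Acta2* differed by 0.94, and both were near 0 or below with both scores (-0.06 and -0.03). *Jph2*, a junctional protein of muscle cells, was at -1.20, and at -0.40 with the muscle score. Of 22 fibroblast genes 10 were higher and 12 lower, and of 15 endothelial genes 5 and 10, with medians of -0.08 for both lists. *Col6a3* was at -1.78 (-0.56 with the muscle score) and *Col14a1* at -0.54. *Kdr*, a VEGF receptor, was at -0.59 and *Vwf*, the clotting factor of endothelium, at 0.47 (0.22 with the muscle score, -0.06 with both). Of 13 nerve and Schwann cell genes 12 were higher, with a median of 0.69 that was 1.55 without 10AF, 0.11 with the muscle score, 0.07 with both scores and -0.32 in DESeq2 with the muscle score. *Erbb3* was at 0.33 (0.11 with the muscle score).

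Fat cell genes were lower. Of 15 adipocyte genes 14 were lower and 1 higher in KO, 7 of them at an unadjusted p under 0.05 (11.5% of all genes), with a median log2 difference of -0.89, or -1.01 with the muscle score. *Lpl*, lipoprotein lipase, was counted at 1528, 1537 and 2458 in WT and 983, 731 and 453 in KO. Its log2 difference was -1.38 (SE 0.318, adjusted p = 0.183 from limma, 0.00414 from DESeq2), and -0.99 with the muscle score. *Adipoq*, which defines fat cells, was at 361, 308 and 339 in WT and 267, 124 and 72 in KO. *Car3*, which fat and muscle both express, followed the muscle list (r = 0.994) and differed by -2.90 (-1.01 with the muscle score), *Fabp4* by -1.36 and *Plin4* by -0.59. The dissection removed surrounding fat, and how much remained in each sample was not measured.

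Immune and proliferation genes gave no clear direction. Macrophage genes had a median log2 difference of -0.20 (6 higher and 8 lower of 14). *Csf1r*, their growth factor receptor, was at -0.99 (-1.58 with the muscle score) and *Lyz2* at -0.36 (-0.16 with both scores). Interferon response genes, 33 tested, had a median of -0.002, and *Dtx3l*, the member with the smallest p, was at 0.69 (adjusted p = 0.183 from limma, 0.0391 from DESeq2), or 0.37 with the muscle score. None of 15 T cell genes and 3 of 17 plasma and B cell genes had enough counts to be tested, so these cells were not compared. Of 25 cell cycle genes 9 were higher and 16 lower, none at an unadjusted p under 0.05, and *Mki67*, the marker of dividing cells, was at 360, 486 and 548 in WT and 425, 491 and 505 in KO. *Birc5*, survivin, differed by -0.63. Urothelial genes, a sign of urethra or bladder, had 4 tested members, 2 higher and 2 lower, with a median of -0.40. *Upk1b* was at 0.33, *Upk1a* at -1.13 (-0.30 with the muscle score) and *Upk3b* at -2.50 (-1.27). Of 8 paraspeckle genes 7 were higher and 1 lower, with a median of 0.12. The lower one was *Neat1*, the RNA on which paraspeckles form and the most abundant member, at 19770, 34967 and 40402 in WT and 18179, 22387 and 12839 in KO. Its log2 difference was -0.81, and -0.03 with the muscle score, while *Sfpq*, a protein member, was at 0.35. Antigen presentation genes of MHC class II, 7 of them tested, had 0.06 as their median, or -0.28 with the muscle score and -0.49 with both. The 32 genes of the translocon, glycosylation and vesicle coats had one of -0.10, or -0.07 and -0.02 in these fits. The next list holds genes that the study names for these lines. Among them are *Sfpq* and *Nono*, from a pull-down of the tagged enzyme in cultured cells. The study reports more SLIRP protein and, in the older mice, less *Tst* mRNA. Its proteins were measured in anterior and dorsal lobes, and the RNA here is of ventral and lateral lobes. Reported directions thus differ within the list, so its count is no evidence of a direction. Of its 9 genes 7 were higher and 2 lower in KO, with a median of 0.51, 0.26 with the muscle score and 0.10 with both. *Tst* overlapped between groups at 0.68 (0.28 with the muscle score, 0.07 with both), and was at -0.72 at 30 weeks. *Slirp* was at -1.07, or -0.06 with both scores. Medians of the luminal, androgen, antioxidant, cell cycle, interferon, fibroblast, endothelial, macrophage, plasma cell and translocon lists changed sign when the libraries were scaled to the same total.

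The same genotypes at 30 weeks are separate mice and libraries. There, muscle genes took at most 0.0826% of normalized counts, while the share of seminal vesicle genes was 8.53%, 0.000143% and 6.33% in 4AF, 5AF and 6AF, the 3 KO libraries of that age, and at most 0.000854% in WT. Lobe content differed too. Secretory genes of the ventral and lateral lobes took 14.7%, 7.47% and 10.5% in WT and 4.76%, 14.1% and 6.38% in KO. *9530053A07Rik* was counted at 57.1, 495946 and 340845 in WT and 223919, 44.1 and 186074 in KO. Of 14295 genes tested at both ages 8498 (59.4%) had the same sign, and 23 of the 33 genes named for their size or p (69.7%). *Mcrip1* had a difference of the same size, with 182, 138 and 149 in WT and 73.8, 75.6 and 83.7 in KO at 30 weeks, below WT in all 3 libraries (log2 difference -0.99). *Mcf2l* did so too, at -0.91. *Prdm16* was at 14.5, 16.1 and 12.9 in WT and 455, 77.1 and 256 in KO, all KO libraries above WT and 5AF the lowest of them.

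Of the 18 genes named for being higher at 10 weeks by size or p, 11 (61.1%) were higher in both 4AF and 6AF than in each other library of 30 weeks, against 18.1% of all genes, and of the 1076 genes higher at an unadjusted p under 0.05 that followed neither tissue list 610 (56.7%) were. The 11 are *Arl4c*, *Cish*, *Crisp1*, *Foxi1*, *Gabrp*, *Gclm*, *Gusb*, *Pigc*, *Prdm16*, *Rec8* and *Unc79*. The part of that tissue in their values at 10 weeks was not tested. *Gclm* was at 315, 433 and 436 in WT and 674, 344 and 593 in KO at 30 weeks, above WT in the libraries with seminal vesicle RNA and within the WT range in 5AF. *Crisp1* was at 0 in all 3 WT libraries and at 9007, 3.67 and 6818 in KO, and *Gabrp* showed the same order, 311, 4.41 and 228 in KO. *Nlrp10*, higher in KO at 10 weeks, had a log2 difference of -2.30 at 30 weeks. It was at 4.02, 861 and 610 in WT and 78.7, 4.41 and 50.0 in KO. Its highest counts were in the WT libraries with most *9530053A07Rik*, which held almost no seminal vesicle RNA. *Slc7a11* overlapped between groups, with 67.5, 71.4 and 63.4 in WT and 73.8, 66.1 and 64.0 in KO (log2 difference 0.01).

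The ER stress list had the opposite sign at 30 weeks. Its median log2 difference was -0.34, with 9 genes higher and 23 lower, and 9 members were above WT without overlap at 10 weeks and below it without overlap at 30 weeks, as were 92 of the 14295 genes. *Hsp90b1* was counted at 8504, 11139 and 9656 in WT and 7506, 7250 and 7239 in KO at 30 weeks. Every KO library lay below every WT library. Counts of the 2 ages are scaled separately and are not compared in level. *Hspa5* differed by -0.31 and *Creld2* by -0.44. Adjusted p from limma at 30 weeks was 0.407 for *Hsp90b1*, 0.430 for *Hspa5* and 0.496 for *Creld2*. Of all genes tested at both ages 18.1% were higher in both 4AF and 6AF, the KO libraries with seminal vesicle RNA, than in each of the other libraries of that age. So were 14 of 24 genes of the integrated stress response (58.3%), *Trib3*, *Psat1*, *Shmt2*, *Mthfd2* and *Sesn2* among them but not *Slc7a11*. Of the basal epithelium list 5 of 10 genes (50%) were, with *Krt14*, *Krt15* and *Trp63* among them. The integrated stress response list had a median of 0.12 at 30 weeks, the adipocyte list of 1.43, the OXPHOS list of 0.00 and the mitochondrial mRNAs of -0.06.

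**Figure D4:**
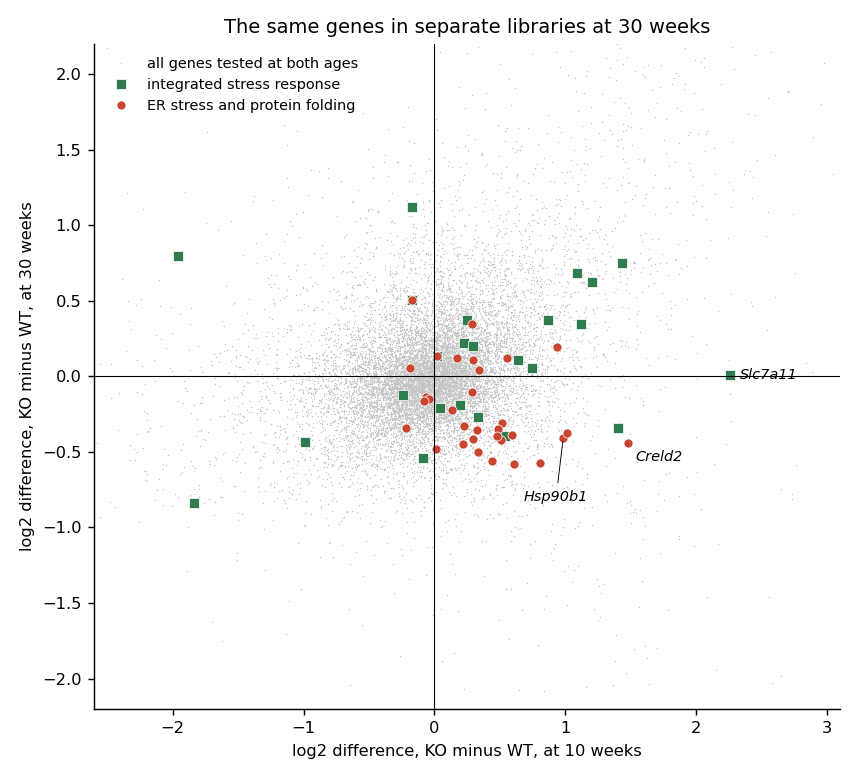
Log2 difference (KO minus WT) of each gene at 10 weeks (horizontal) and in separate libraries at 30 weeks (vertical), with all genes tested at both ages in grey, ER stress genes as red circles and integrated stress response genes as green squares, and 312 genes beyond the axes. Of 32 ER genes 26 lie to the right of 0 and 23 below 0, *Creld2* lies at 1.48 and -0.44, and *Slc7a11* lies at 2.25 and 0.01.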

How the data were processed

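Reads were trimmed, mapped by the authors to GRCm38 with STAR and quantified with Salmon, and transcripts were summed to genes with tximport. Per the submitters' processing notes the versions were Trim Galore 0.4.1, cutadapt 1.18, STAR 2.7.3a and DESeq2 1.26. The deposited signal is a gene count over the library's own DESeq2 size factor, which the authors estimated from the 6 libraries of the table. In each of the 6 libraries 100% of values were whole multiples of the value of 1 read (tolerance 0.01), and reads recovered so entered DESeq2 1.42.0 and edgeR 4.0.16, which called 715 and 0 genes. The tables of the authors' own comparisons, which hold log2 fold changes and s-values, were not used.

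The column names carry no genotype and no replicate number. The 3 libraries that both 10-week tables hold were taken as WT, and those that only the KO table holds as KO. The test of the 15089 genes with a mean of 10 or more used limma 3.58.1 (lmFit, eBayes with a mean trend, R 4.3.3) on log2(normalized count + 1), with p adjusted over all of them by the Benjamini-Hochberg method (threshold 0.05). A fold change on that scale understates low genes. Shares were compared with two-sided exact permutation tests. The score of a tissue is the mean log2 level of its list. Intervals and limits on counts of 0 cover counting error only.

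The comparison, its 33 gene lists and the tests were chosen with earlier results of these data known, and the lists were written by hand. Named genes are *Elac2*, each list's 3 members of highest mean (5 for 3 lists) and its member with the smallest p, and, of genes with a mean of at least 100 that followed neither tissue list (r at or under 0.8), the 12 higher and 12 lower with the smallest limma p without overlap, the 6 with the smallest p under the muscle covariate, the 6 largest differences and the 6 smallest DESeq2 p on each side. Some genes this rule takes are not described. *Adipoq*, *Asns*, *Atf4*, *Calr*, *Col17a1*, *Derl2*, *Fabp4*, *Gm20236*, *Herpud1*, *Hyou1*, *Manf*, *Mthfd2*, *Pdia4*, *Psat1*, *Pycr1*, *Sdf2l1*, *Sesn2*, *Shmt2*, *Slc3a2*, *Slc7a5*, *Trib3*, *Trp63* and *Vldlr* fall outside it and were chosen with their values known. Gene positions are from the GENCODE annotation of GRCm38, and promoters from RefSeq. Figures were drawn with matplotlib 3.10.9 in Python 3.11.15. The scripts were tested on simulated data. The alternatives were another pseudocount, 2 other minimum counts, 3 other scalings, no mean trend, tissue scores as covariates, DESeq2, edgeR and leaving out each library. Another 5 were chosen after seeing the data.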

Additional observations from a re-analysis of the deposited data

Results flagged for a closer look

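Listed here are the described genes for which every KO library lay on one side of every WT library at 10 weeks and on the other side at 30 weeks. The difference between the ages was not tested. Of the chaperone genes higher at 10 weeks, *Hspa5* had a log2 difference of -0.31 at 30 weeks, *Hsp90b1* of -0.41, *Hyou1* of -0.42, *Manf* of -0.39, *Sdf2l1* of -0.56 and *Calr* of -0.36. *Azin1*, the antizyme inhibitor, went from 0.36 to -0.36. In the other direction, *Plin4* of fat cells stood at 1.23, *Acta1* of skeletal muscle at 0.38 and the collagen gene *Col14a1* at 0.27 at 30 weeks. Muscle genes took up to 13.8% of counts at 10 weeks and at most 0.0826% at 30 weeks, and the part of tissue composition in these reversals was not tested.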

How the results depend on the processing

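No paired analysis was possible because the labels name no litter or pair, and the deposited columns carry no replicate numbers. The number of genes called by limma at an adjusted p under 0.05, 0 as reported, was 1 without a mean trend (*Tex14*, at 0.978, 0.833 and 1.02 in WT and 20.6, 34.0 and 26.3 in KO). It was 0 to 2840 as libraries were left out in turn, with 2840 without 10AF and 185 without 14AF. It was 0 under the other pseudocount, minimum counts, scalings and covariates in limma, and in edgeR. DESeq2 called 715 genes, 3614 without 10AF, and 5 with the muscle score as covariate. These 5, named after their values were seen, were *Tmem132b*, with 194 in 14AF and at most 54.1 elsewhere, and *Gm45837*, *Sptssb*, *Gm23444* and *Gm23472*, each counted in 1 WT library only. Without both 10AF and 14AF limma called 1942 genes, and without 12AF and 15AF 0. Of the 715 DESeq2 calls 659 were also called by limma without 10AF. The cause of these changes was not tested.

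With the muscle score as covariate the log2 difference changed sign for *Sbp* (0.27), *Spink1* (0.42), *Krt18* (0.087), *Nupr1* (0.16), *Myl3* (0.25) and *Xirp1* (0.082), and in DESeq2 with that score for *Krt18* (0.081), *Myl3* (0.69) and *Xirp1* (0.35). With the seminal vesicle score it did for *Svs2* (-0.72), *Svs5* (-0.68), *Vwf* (-0.077) and *9530053A07Rik* (-0.0539). With both scores it did for *Svs2* (-1.10), *Svs5* (-0.997), *Sbp* (0.21), *Spink1* (0.44), *9530053A07Rik* (-0.29), *Krt18* (0.066), *Atp5b* (0.10), *Nupr1* (0.34), *Myh11* (-0.056), *Acta2* (-0.031), *Foxi1* (-0.44), *Neat1* (0.052), *Vwf* (-0.064), *Myl3* (0.28) and *Xirp1* (0.084). With the ventral and lateral secretion score it did for *Sbp* (0.32), *Spink1* (0.29), *Krt18* (0.046) and *Atf4* (-0.000633). Scaling to the same total turned *Krt18* (0.20) and *Prdx1* (0.033), leaving out the marker genes *Krt18* (0.18) and *Prdx1* (0.017), and quantile normalization *Krt18* (0.19). As libraries were left out, *Krt18* ran from -0.11 to 0.083, *Atf4* from -0.032 to 0.053 and *Mki67* from -0.13 to 0.18. *Mki67* was at -0.15 without 10AF and 14AF and at -0.11 in DESeq2 without 10AF. The cause was not tested. The shares of skeletal muscle, seminal vesicle and mitochondrial mRNAs differed by -9.70 to -4.91, 5.58 to 7.90 and -1.36 to -0.884 percentage points as libraries were left out. With 3 mice per group and composition that moves with genotype, genotype and tissue content cannot be told apart where a covariate removes a difference. Nor does a difference that a covariate leaves show an effect of genotype apart from tissue content.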
